A study of Mus musculus with 4 samples.

Results

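The genes described here encode the proteins of the cytosolic ribosome. They are the rows of the deposited expression table whose symbols follow the Rpl, Rps, Rplp and Rpsa names, without the kinases of the Rps6ka and Rps6kb names, and whose mean over all 4 libraries was 1 FPKM or more. FPKM counts fragments per kilobase of a transcript, relative to all mapped fragments in that library. The rule found 82 genes among 23997 rows, 49 of the large and 33 of the small ribosomal subunit. The members were thus chosen by their mean FPKM, and their levels are given as a description only; the difference between genotypes was not part of the rule. Of 84 symbols that match the names, 2 were under the limit. Rpl10l, known from testis, was listed at 0 in every library, and Rpl3l, known from heart and skeletal muscle, at 0, 0, 0.189 and 0.0514 FPKM. The members closest above the limit were Rpl39l, with a mean of 1.26 FPKM, and Rps4l, with 2.31 FPKM.

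RNA was sequenced from follicular helper T (Tfh) cells of C57BL/6 mice aged 13 weeks. Tfh cells are CD4 T cells that enter B cell follicles and help germinal centre B cells mature. The cells were prepared from lymph nodes and spleens, and no treatment is labelled in either group. Each genotype has 2 libraries: wild type (WT) and Apoe-/-, which lacks the gene of apolipoprotein E, a loss that raises plasma cholesterol and leads to atherosclerosis. The labels do not say how the cells were sorted, nor whether a library came from 1 animal or a pool, so that p-values rest on the spread of single libraries, and this may be technical only. Values of the 4 libraries are always given in the order WT replicate 1, WT replicate 2, Apoe-/- replicate 1 and Apoe-/- replicate 2.

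Ribosomal proteins bind ribosomal RNA and form, with it, the small subunit, which reads the messenger RNA, and the large subunit, which joins the amino acids. Nearly all of them are present once per ribosome, whereas the acidic stalk proteins are present in several copies. Their messenger RNAs begin with a run of pyrimidines, the terminal oligopyrimidine (TOP) motif, through which the kinase mTOR and the protein LARP1 control their translation and stability. Lymphocytes make many new ribosomes when they leave rest and begin to divide. Mammalian genomes also hold many processed pseudogenes of these genes, whose sequences are close to those of the messenger RNAs.

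The start of the transcript is shown here for some members with high or low differences, because the TOP run is what these messenger RNAs are known to share. Rps9 was taken for its high mean FPKM instead. RefSeq's promoter table for GRCm38.p6, the assembly also called mm10, had an entry for 61 of the 82 members, 72 entries in all. Each line holds 30 bases from 10 before the annotated start to base 20 of the transcript, written 5′ to 3′ on the gene's own strand, with the longest run of 6 or more C or T in capitals.
Rplp2, chr7:141447641-141447670, plus strand: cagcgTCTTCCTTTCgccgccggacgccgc
Rpl35, chr2:39005112-39005141, minus strand: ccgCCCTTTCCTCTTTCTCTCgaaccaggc
Rpl13a, chr7:45128726-45128755, minus strand: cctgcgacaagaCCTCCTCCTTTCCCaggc
Rps9, chr7:3704031-3704060, plus strand: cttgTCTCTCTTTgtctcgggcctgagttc
Rps16, chr7:28350679-28350708, plus strand: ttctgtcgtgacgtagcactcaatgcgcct
Rpl24, chr16:55966265-55966294, plus strand: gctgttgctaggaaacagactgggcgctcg
Rps2, chr17:24720053-24720082, plus strand: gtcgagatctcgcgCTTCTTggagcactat
Rpl10, chrX:74270806-74270835, plus strand: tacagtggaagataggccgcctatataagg
Rpl22l1, chr3:28805498-28805527, plus strand: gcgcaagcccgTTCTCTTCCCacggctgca
Rpl7l1, chr17:46782637-46782666, minus strand: gctgcgcaagcgcagtagctgaagcaccgg

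A run of 6 or more pyrimidines lay in this window in 40 of the 72 members' entries (55.6%), in 27.7% of the 10711 entries of the other tested genes and in 28.7% of all 32851 entries. The share was 55.8% for the large and 55.2% for the small subunit. By gene, the 38 members with a run had a median log2 difference between genotypes (Apoe-/- minus WT, on the log2(FPKM + 1) scale) of 0.22, and the 23 without had 0.21. Rps16 and Rpl24, both among the 3 members with the largest differences, have no run in the windows above, while Rpl22l1, which was not higher in Apoe-/- libraries, has a run of 10. The annotated start can lie some bases away from the start used in these cells, which was not measured. The entry of Rps2 lies well inside the gene, which spans chr17:24718121-24721927. That of Rps9 also lies inside its gene, which spans chr7:3703954-3706897. The windows of Rps2 and Rps9 may therefore not be the start of their main messenger RNA.

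The letters CCGGAAG, the core bound by ETS family factors such as GABP, were searched on both strands of the 300 bases from 250 before to 50 after the start. They were present in 37.5% of the members' entries, in 18.7% of those of the other tested genes and in 8.86% of all entries. The letters AAGATGG, the core bound by YY1, were present in 16.7%, 7.31% and 6.34%, CACGTG, the E-box of the Myc family, in 11.1%, 10.2% and 7.15%, and TATAAA, the TATA box, in 9.72%, 6.85% and 13.6%. On the opposite strand the ETS letters hold a stretch of pyrimidines, so that a match can overlap a run, and 18 member entries held both. The 26 members with the ETS letters had a median log2 difference of 0.22 and the 35 without them 0.20. The sequence below is that of Rplp2, the member with the largest difference among those with 1 annotated start that hold both the run and the ETS letters. It gives the 270 bases up to base 20 of the transcript, with its 1 ETS match, on the opposite strand, in capitals.
Rplp2, chr7:141447401-141447670, plus strand: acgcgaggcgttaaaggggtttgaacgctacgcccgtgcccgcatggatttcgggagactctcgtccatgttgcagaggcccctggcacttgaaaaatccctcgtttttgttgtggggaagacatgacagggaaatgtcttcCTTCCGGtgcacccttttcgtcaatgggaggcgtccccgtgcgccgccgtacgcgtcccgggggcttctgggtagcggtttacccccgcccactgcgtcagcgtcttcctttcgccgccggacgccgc

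Apoe itself, the check of the labels, was at 145 and 128 FPKM in WT and at 5.09 and 5.21 FPKM in Apoe-/- libraries. The depth of the libraries is unknown, since the table gives FPKM and no read counts. Total FPKM was 522371 to 527056 in WT and 533866 to 551289 in Apoe-/- libraries. A difference in FPKM in such bulk samples can come from fewer cells of a type or from less RNA per cell, which cannot be told apart. FPKM is also relative to the other RNA in the library, so that no value here is an amount per cell.

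Summed over the 82 genes, FPKM was higher in both Apoe-/- libraries than in both WT libraries. The members' sum was 106424 and 104947 FPKM in WT and 123541 and 122602 FPKM in Apoe-/- libraries, a ratio of the means of 1.17. The large subunit reached 58177 and 56872 FPKM in WT and 67583 and 67115 FPKM in Apoe-/- (ratio 1.17). The small subunit reached 48247 and 48075 FPKM in WT and 55959 and 55487 FPKM in Apoe-/- (ratio 1.16). The sum of all other rows was 415947 and 422109 FPKM in WT and 410325 and 428687 FPKM in Apoe-/- libraries, which overlap, with a ratio of 1.0. Total FPKM thus differed by 17864 between the means of the groups, and the members' sum by 17386. As a share of total FPKM the members made up 20.4% and 19.9% in WT and 23.1% and 22.2% in Apoe-/- libraries. The means were 20.1% ± 0.325 and 22.7% ± 0.636 (SD, n = 2 each), a difference of 2.55 percentage points. No test was run on these sums, because the smallest p of an exact permutation test of 2 against 2 libraries is 0.333. These shares are per kilobase of transcript, so they are not shares of reads, and short transcripts weigh more in them.

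**Figure D1:**
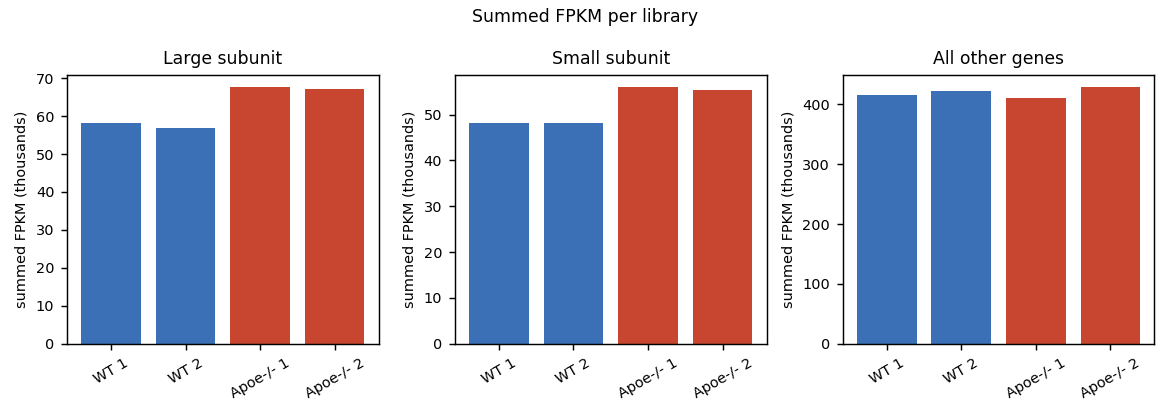
Summed FPKM of the large subunit members, the small subunit members and all other rows in each of the 4 libraries, 1 bar per library; blue bars are WT and red bars Apoe-/-. Both Apoe-/- bars stand above both WT bars for each subunit, whereas the bars of all other rows overlap between genotypes.

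Ribosomal protein messenger RNAs were among the most abundant rows per kilobase. Of the 100 genes with the highest mean FPKM, 65 were members, 36 of the large and 29 of the small subunit. Most levels lay close together: 72 of the 82 had a mean of 500 FPKM or more, and the highest of these 72 was 7.73 times the lowest. The other 10 lay below. Rps29, a small zinc-binding protein of the head of the small subunit, was highest, at 4284, 3888, 5303 and 4386 FPKM. The stalk protein Rplp1 followed at 3327, 2990, 3792 and 3318 FPKM. Rpl41, the shortest ribosomal protein, which lies between the subunits, was at 2553, 2441, 2815 and 2972 FPKM. Next came Rps16, the stalk protein Rplp2 and Rpl23a, a protein of the tunnel exit, with means of 2592, 2512 and 2324 FPKM. The Apoe-/- libraries were above the WT libraries for Rps29, Rpl41, Rps16, Rplp2 and Rpl23a, and the groups overlapped for Rplp1.

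Levels of the small subunit were higher than those of the large subunit in each library. The median over the large subunit members was 1159, 1113, 1404 and 1329 FPKM and that over the small subunit members 1509, 1444, 1730 and 1676 FPKM. The ratio of the medians, large over small, was 0.768 and 0.771 in WT and 0.812 and 0.793 in Apoe-/- libraries. It was higher in both Apoe-/- libraries. The quartiles of mean levels were 808 and 1712 FPKM in the large and 1265 and 2026 FPKM in the small subunit, so that the distributions overlap widely. The sums go the other way, because the large subunit has more members: large over small was 1.21 and 1.18 in WT and 1.21 and 1.21 in Apoe-/- libraries. Across the 82 members, mean FPKM had a Spearman correlation of -0.08 with transcript length, which ran from 334 to 3706 bases.

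**Figure D2:**
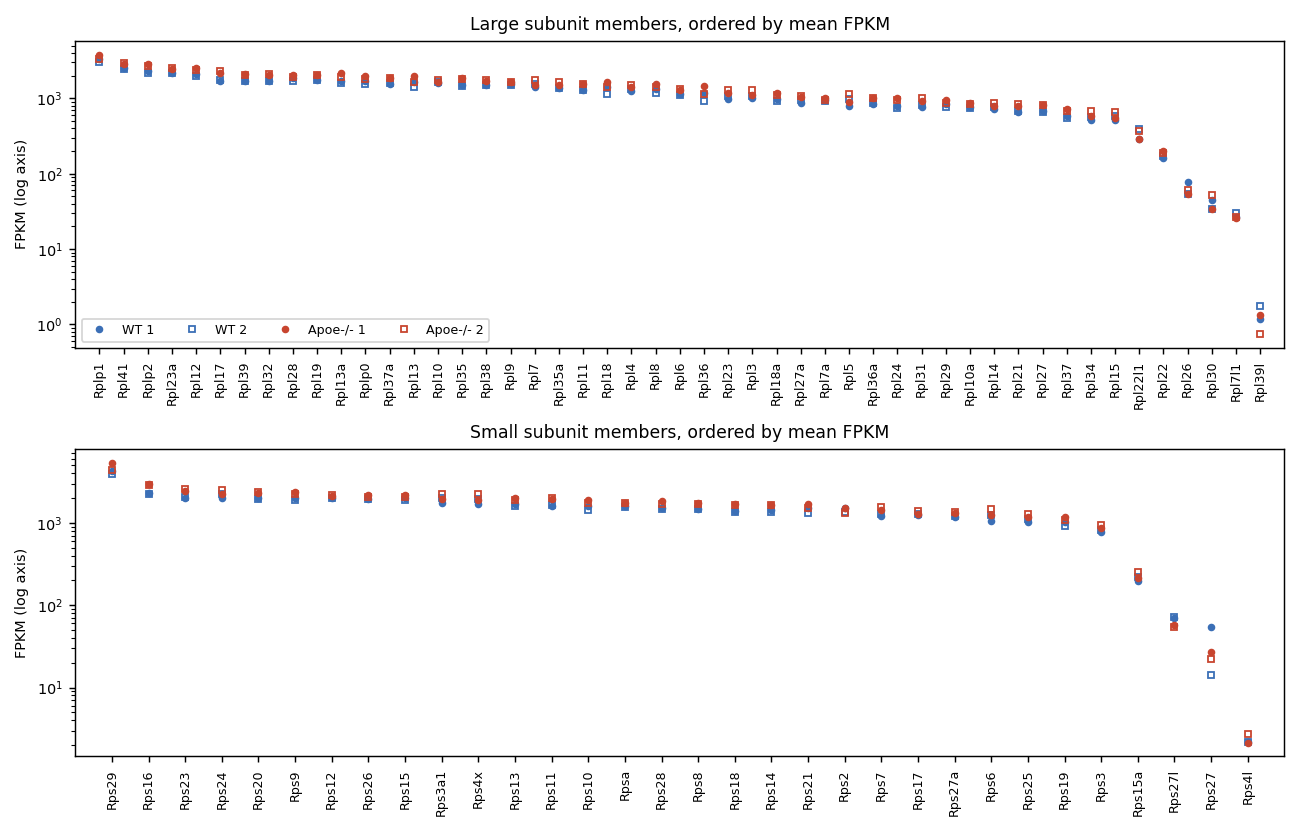
FPKM (log axis) of 81 members in each library, the large subunit above and the small subunit under it, ordered by mean FPKM; circles mark replicate 1, squares replicate 2, blue WT and red Apoe-/-. Most members form a plateau above 500 FPKM, and the 10 members under 500 FPKM, from Rpl22l1 to Rpl39l and from Rps15a to Rps4l, stand at the right ends.

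Gene by gene, most members were slightly higher in Apoe-/- libraries and none passed the test on genotype alone. Differences were tested with limma on log2(FPKM + 1) over the 11187 genes whose mean FPKM reached 1, two-sided, and adjusted by Benjamini-Hochberg over all of them, with a threshold of 0.05. Of the members, 0 of 82 were called higher and 0 lower. Among all tested genes 0.948% were called higher and 0.885% lower. At an unadjusted p under 0.05, 40 members were higher and 1 lower, beside 11.6% and 8.27% of all tested genes. The smallest adjusted p by limma was 0.0678, for Rps16; 3 members were under 0.1 and 37 under 0.2.

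In direction, 75 members had a positive and 7 a negative difference, whereas 50% of all tested genes were positive. Both Apoe-/- libraries lay above both WT libraries for 60 members and below them for 2, and the groups overlapped for 20. Over all tested genes these shares were 27.5% above and 22.9% below. The median difference was 0.21, a fold of 1.16, with quartiles of 0.16 and 0.26. Over all tested genes it was 0.0003, with quartiles of -0.16 and 0.17. The large subunit had a median of 0.22, with 45 of 49 positive, and the small subunit one of 0.21, with 30 of 33 positive. Between libraries that carry replicate number 1 the members' median was 0.20, and between those with number 2 it was 0.23. The members are not independent of each other, and no test was run over them as a list. The difference exceeded the gap between replicates within either group for 57 of the 82. That count was not made over all tested genes, so it has no background to be read against.

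The members' differences lay close together. Of the 82 differences, 72 lay between 0.1 and 0.4 on the log2 scale, and their SD over the members was 0.13, against 0.36 over all tested genes. The 72 members at 500 FPKM or more spanned -0.0033 to 0.36, with a median of 0.23 and an SD of 0.07. Of those 72, 71 were positive and 59 had groups that did not overlap. The other 61 genes with a mean of 500 FPKM or more had a median of 0.02 and an SD of 0.27. Of these 61, 32 were positive, groups did not overlap for 14 in the higher and 13 in the lower direction, and 0 were called by limma. No test compared the abundant members with these genes.

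**Figure D3:**
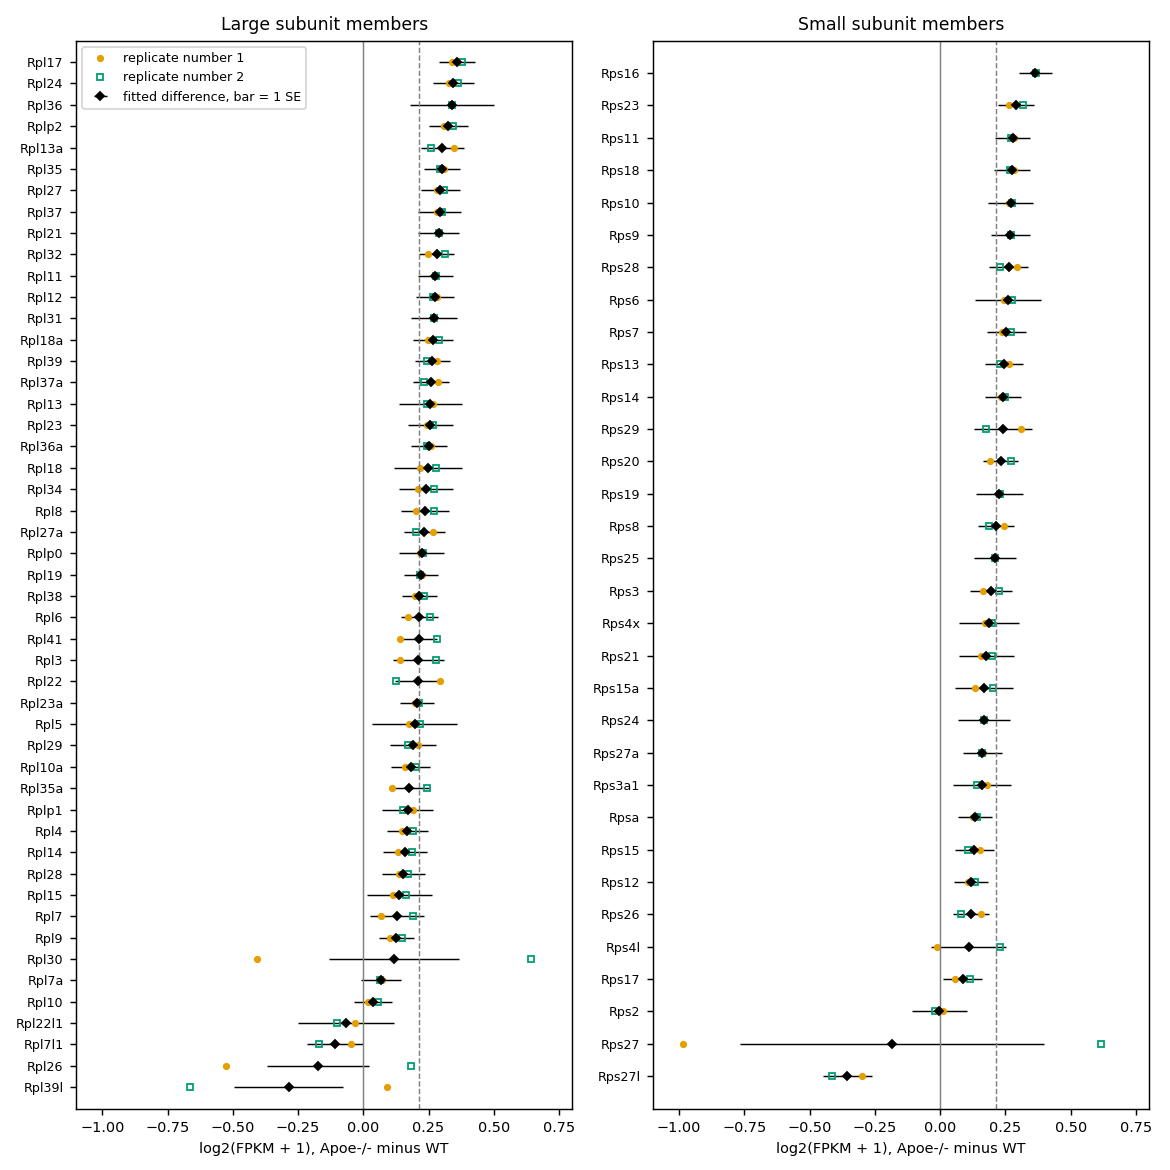
Difference of log2(FPKM + 1), Apoe-/- minus WT, of 81 members; diamonds are the fitted differences with bars of 1 SE, circles the difference between libraries of replicate number 1 and squares that of number 2. The dashed line is the members' median, 0.21, and most members of both subunits lie near it, from Rps16 at 0.36 to Rps27l at -0.36.

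**Figure D4:**
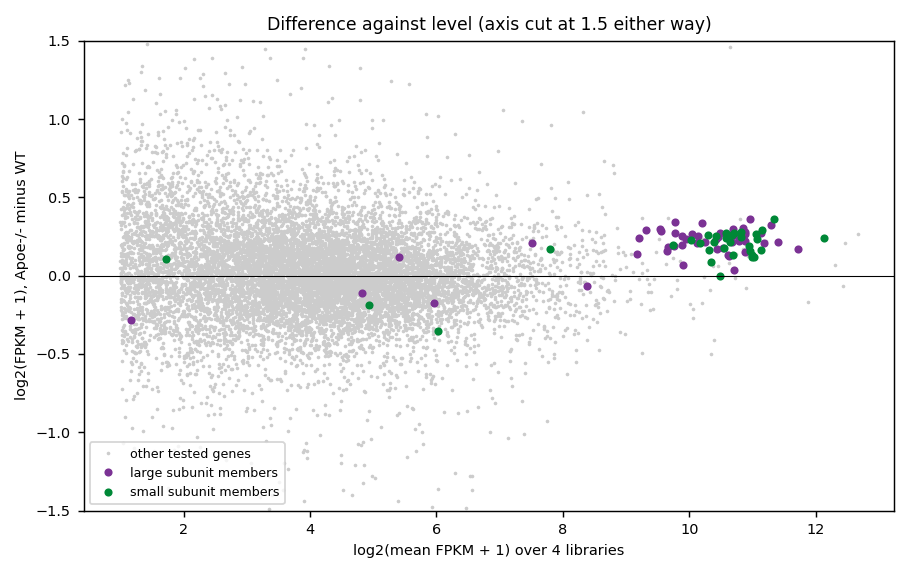
Difference of log2(FPKM + 1), Apoe-/- minus WT, against log2(mean FPKM + 1) for tested genes in grey, large subunit members in purple and small subunit members in green; 58 genes beyond 1.5 either way, members not among them, lie outside the axis. Members at high FPKM form a compact group above 0, and the few members at low FPKM scatter on both sides of it.

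The proteins of the stalk, which brings the elongation factors to the ribosome, illustrate the size of these differences. Rplp0, its base, was at 1698, 1548, 1976 and 1814 FPKM, without overlap between the groups (log2 difference 0.22 ± 0.09 SE, limma adjusted p = 0.237). Rplp2 was at 2315, 2145, 2867 and 2722 FPKM, also without overlap (0.33 ± 0.08, limma adjusted p = 0.104). Its partner Rplp1 had a difference of 0.17 ± 0.10 (limma adjusted p = 0.397), and there WT replicate 1 lay above Apoe-/- replicate 2.

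In the small subunit Rps16, whose tail reaches the transfer RNA in the peptidyl site, had the largest difference of all members. It was at 2274 and 2257 FPKM in WT and at 2927 and 2907 FPKM in Apoe-/- libraries (log2 difference 0.36 ± 0.06 SE). Replicates were nearly equal in both groups, and the libraries numbered 1 and those numbered 2 each gave 0.36. Rps6, which the S6 kinases downstream of mTOR phosphorylate, was at 1044, 1231, 1237 and 1488 FPKM. The groups did not overlap, but WT replicate 2 and Apoe-/- replicate 1 were nearly level (0.26 ± 0.13, limma adjusted p = 0.334). Rps2, which lies with Rps3 at the entry of the messenger RNA, was at 1518, 1349, 1531 and 1332 FPKM. Its difference was -0.0033 ± 0.10, with a 95% interval of -0.26 to 0.26 that includes the members' median, and the gap between replicates was larger than that between genotypes.

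In the large subunit Rpl17 and Rpl35, of the rim of the exit tunnel, and Rpl24, which bridges the subunits, were among the highest differences. Rpl17 was at 1720, 1764, 2178 and 2292 FPKM (log2 difference 0.36 ± 0.07 SE, limma adjusted p = 0.0815). Rpl24 was at 795, 746, 997 and 961 FPKM (0.35 ± 0.08, limma adjusted p = 0.0999). Rpl35 was at 1497, 1468, 1855 and 1798 FPKM (0.30 ± 0.07, limma adjusted p = 0.102). The groups were apart for each of them.

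Rpl13a, known outside the ribosome as a silencer of inflammatory messenger RNAs, was at 1680, 1609, 2138 and 1924 FPKM (0.30 ± 0.08, limma adjusted p = 0.136). Rpl27 was at 678, 649, 824 and 805 FPKM (0.29 ± 0.07, limma adjusted p = 0.123). Rpl36 had a similar difference, 0.34 ± 0.16, but was at 1159, 914, 1463 and 1158 FPKM, so that WT replicate 1 and Apoe-/- replicate 2 were level. Rpl10, which joins the large subunit late in assembly and sits near the peptidyl transferase centre, was at 1609, 1669, 1630 and 1735 FPKM, where the groups overlapped (0.04 ± 0.07, limma adjusted p = 0.814).

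Other members of known roles had differences from 0.12 to 0.28. Rpl5 and Rpl11, which with a small ribosomal RNA form the particle that binds Mdm2, had differences of 0.20 and 0.28, and only Rpl11 had groups apart. Rpl3, which shapes the peptidyl transferase centre, was at 1004, 1063, 1108 and 1290 FPKM (0.21 ± 0.10). Rpl38, which favours the translation of Hox messenger RNAs in mouse embryos, had a difference of 0.21, and Rps25, used by several viral internal ribosome entry sites, one of 0.21. Rps19 and Rps26, genes of Diamond-Blackfan anaemia in humans, had differences of 0.23 and 0.12. Groups were apart for Rpl3, Rpl38, Rps25, Rps19 and Rps26.

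Among the paralogs, differences went both ways. Rps27l, a paralog of Rps27 that p53 induces, was lower in both Apoe-/- libraries, at 70.8 and 72.6 FPKM in WT and at 57.4 and 54.3 FPKM in Apoe-/- (log2 difference -0.36 ± 0.09 SE, limma adjusted p = 0.132). It was the 1 member that was lower at an unadjusted p under 0.05. The other member with both Apoe-/- libraries below both WT libraries was Rpl7l1, at 26.9, 30.1, 26.1 and 26.6 FPKM (-0.11 ± 0.11, limma adjusted p = 0.624). Its partner Rpl7 was at 1428, 1548, 1496 and 1766 FPKM, with overlap (0.13 ± 0.10). No test compared the differences of partners with each other.

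Rpl22l1 was more abundant per kilobase than its partner Rpl22 in every library. Rpl22, without which mice make few alpha-beta T cells, was at 162, 174, 199 and 190 FPKM, apart between the groups (log2 difference 0.21 ± 0.09 SE, limma adjusted p = 0.278). Rpl22l1 was at 292, 393, 285 and 366 FPKM, where libraries of equal number were close and the groups overlapped (-0.07 ± 0.18, limma adjusted p = 0.872). Rpl22l1 made up 64.3%, 69.2%, 59.0% and 65.8% of the pair's summed FPKM. Within each replicate number that share was lower in the Apoe-/- library, whereas the groups overlapped.

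Rpl39l and Rps4l were near the lower limit of the rule. Rpl39l, known from testis, was at 1.19, 1.77, 1.33 and 0.748 FPKM (log2 difference -0.29 ± 0.21), beside 1720, 1720, 2093 and 2039 FPKM of Rpl39, which lines the exit tunnel (0.26 ± 0.07, limma adjusted p = 0.121). Rps4l was at 2.17, 2.17, 2.15 and 2.72 FPKM (0.11 ± 0.14), beside 1700, 1962, 1917 and 2254 FPKM of Rps4x, with overlap in both (Rps4x 0.19 ± 0.11, limma adjusted p = 0.427).

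Near-identical copies limit what a row measures. In the GENCODE M21 transcripts, 80 of the 82 members shared at least 1 stretch of 50 bases with another annotated gene, mostly pseudogenes, and 49 shared more than 50% of their stretches. How the authors assigned fragments that map to several places is not given in the sources used here, so levels of these members are uncertain. Rpl39l shared none. The 49 members had a median log2 difference of 0.21 and the other 33 one of 0.23. Across members the shared percentage had a Spearman correlation of 0.05 with mean FPKM and of -0.02 with the difference.

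Rps27 is the clearest case. It was at 54.8, 14.2, 27.2 and 22.4 FPKM, an uneven series in which WT replicate 1 alone stood high (log2 difference -0.18 ± 0.58 SE). The row Rps27rt, named as its retrogene, was at 5917, 5832, 7206 and 6935 FPKM, above every member. Of the stretches of Rps27, 98.7% were shared with Rps27rt. Summed, the pair was at 5972, 5846, 7234 and 6958 FPKM, apart between the groups. Rpl34-ps1, whose stretches were all shared with other genes, was at 1302, 1104, 1418 and 1361 FPKM, above Rpl34 at 512, 564, 591 and 680 FPKM.

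Rpl30 and Rpl26 were also uneven. Rpl30 was at 45.1, 33.6, 33.8 and 53.0 FPKM (0.12 ± 0.25) and Rpl26, of the tunnel exit, at 78.3, 53.2, 54.0 and 60.5 FPKM (-0.17 ± 0.19). Their stretches were shared to 47.8% and 71.3%, and their differences had opposite signs within number 1 and number 2. The rows with which each shares most are abundant: Gm12191, which holds 47.8% of the stretches of Rpl30, was at 1523, 1736, 1614 and 1976 FPKM, with overlap between the groups. Gm15772, which holds 60.6% of those of Rpl26, was at 1417, 1409, 1616 and 1688 FPKM, with the groups apart (0.22 ± 0.07, limma adjusted p = 0.167).

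The members lie on 19 chromosomes. Chromosome 7, which carries Apoe, holds 14 of them, with a median log2 difference of 0.24 against 0.21 elsewhere. Of 3 members within 10 Mb of Apoe, Rps19 lies 5.18 Mb away and Rps16 8.65 Mb (chr7:28350689-28352698 in GRCm38.p6). Rps19 was at 1012, 919, 1181 and 1078 FPKM (0.23 ± 0.09, limma adjusted p = 0.251). Its groups were apart. The largest difference of all members is thus that of a gene within 10 Mb of the targeted locus, and the part of that position was not tested.

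Libraries also differed by replicate number. The median size of the difference between numbers 2 and 1 was 0.08 over the members and 0.15 over all tested genes, beside 0.22 and 0.17 for that between genotypes. Across the 82 members the shift from number 1 to 2 in WT had a Spearman correlation of 0.70 with that in Apoe-/-, beside 0.67 over all tested genes. The shift between numbers ran against the GC content of the transcript, with a Spearman correlation of -0.46 over the members and of -0.82 over 10283 tested genes with a coding transcript. The genotype difference had correlations of 0.20 and 0.27 with GC content. GC content ran from 39.1% to 60.8% over the members, with a median of 52.1%, close to the 50.8% of tested genes. These correlations are across genes, which share their libraries. The row Rn45s, the precursor of ribosomal RNA, was uneven between replicates, at 1326, 438, 1362 and 3244 FPKM (1.46 ± 0.62, limma adjusted p = 0.271), and was named after its values were seen. The part of GC content and of ribosomal RNA in the genotype difference was not tested.

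**Figure D5:**
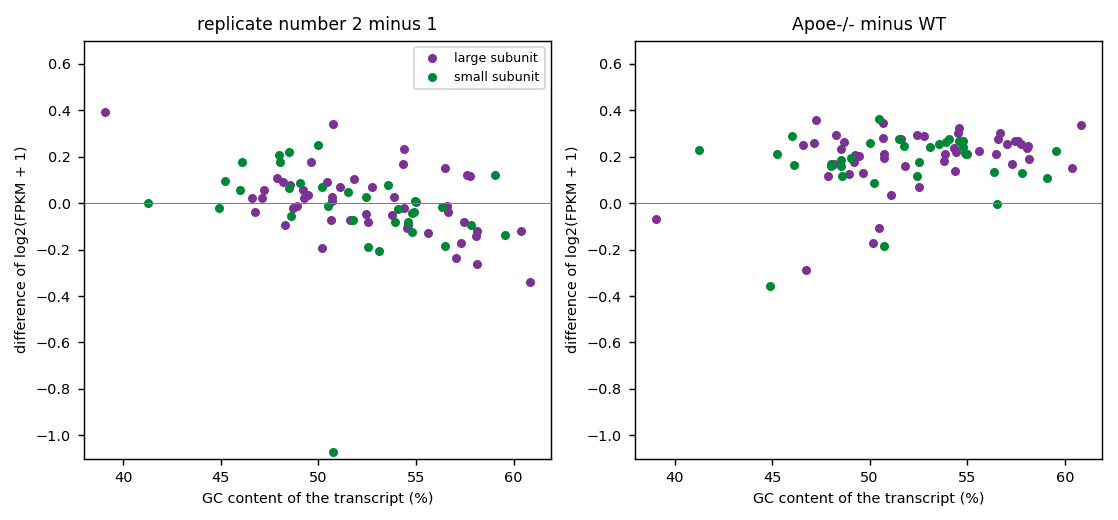
Difference of log2(FPKM + 1) against GC content of the transcript (%) for each member, between replicate numbers 2 and 1 at left and between Apoe-/- and WT at right; purple points are large and green points small subunit members. The difference between numbers slopes down with GC content, and that between genotypes stays near 0.2 over most of the range.

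Ribosomal proteins that carry other symbols had values like those of the members. Fau, a fusion of a ubiquitin-like protein with a small subunit protein, was at 1647, 1483, 2109 and 1918 FPKM (log2 difference 0.36 ± 0.09 SE, limma adjusted p = 0.118). Gnb2l1, the scaffold RACK1, was at 1111, 1074, 1287 and 1281 FPKM (0.23 ± 0.07), and Rpl36al at 366, 401, 413 and 446 FPKM (0.16 ± 0.09, limma adjusted p = 0.392). Of 4 such genes tested, all had groups apart and 0 passed the test.

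Other messenger RNAs of the translation apparatus that are known to begin with a TOP run had a lower median. Of 16 tested, 0 passed, 11 were positive, and both Apoe-/- libraries lay above both WT libraries for 5, with a median log2 difference of 0.07. Of all tested genes, 27.5% lay above in the same way. At an unadjusted p under 0.05, 2 were higher and 0 lower, beside 11.6% and 8.27% of all tested genes. The elongation factor genes Eef1a1 (5042, 5424, 5677 and 6404 FPKM; 0.21 ± 0.08) and Eef2 (940, 857, 1084 and 1029 FPKM; 0.23 ± 0.08) lay near the members' median. Eif3f, of the initiation factor that binds the small subunit, had the largest difference, at 266, 264, 324 and 349 FPKM (0.34 ± 0.08, limma adjusted p = 0.119). Hnrnpa1, an RNA-binding protein, had the lowest, at 235, 291, 184 and 279 FPKM (-0.20 ± 0.22), with overlap.

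Differences of genes that make or assemble ribosomes lay on both sides of 0. Of 28 tested assembly genes 0 passed, 9 were positive and 19 negative, with a median log2 difference of -0.04. At an unadjusted p under 0.05, 0 were higher and 4 lower, beside 11.6% and 8.27% of all tested genes. Gnl3, the GTPase nucleostemin, had the lowest difference, at 36.1, 44.8, 23.3 and 30.1 FPKM (-0.58 ± 0.17, limma adjusted p = 0.153). Nop56, a core protein of the particles that methylate ribosomal RNA, was at 90.6, 89.2, 67.8 and 68.6 FPKM (-0.39 ± 0.09, limma adjusted p = 0.102), with the groups apart. The highest difference was that of Eif6, which keeps free large subunits from joining, at 44.7, 42.0, 52.7 and 45.7 FPKM (0.18 ± 0.11, limma adjusted p = 0.451). Nop56 was named after its values were seen.

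Regulators of ribosomal protein messenger RNAs had a median of -0.07, with 0 of 18 called, 6 positive and 12 negative. At an unadjusted p under 0.05, 0 were higher and 1 lower, beside 11.6% and 8.27% of all tested genes. Larp1b, a relative of the TOP-binding protein LARP1, was lowest, at 25.4, 30.3, 18.6 and 19.0 FPKM (-0.54 ± 0.12, limma adjusted p = 0.103). Eif4ebp2, a repressor of cap-dependent translation under mTOR, was highest, at 68.0, 66.1, 81.0 and 75.1 FPKM (0.22 ± 0.10, limma adjusted p = 0.293). Groups were apart for both. Mtor itself was at 10.2, 9.38, 8.42 and 8.86 FPKM and Myc at 27.7, 25.1, 22.9 and 20.4 FPKM; neither passed, and both were named after their values were seen.

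Proteins of the mitochondrial ribosome, a separate machine, were centred near 0. Of 77 tested, 0 passed, 34 were positive, and the median log2 difference was -0.01. At an unadjusted p under 0.05, 1 was higher and 7 lower, beside 11.6% and 8.27% of all tested genes. Mrps12 was lowest, at 32.0, 25.4, 17.9 and 15.8 FPKM (-0.73 ± 0.15, limma adjusted p = 0.0872), and Mrpl48 highest, at 20.7, 27.1, 27.8 and 29.2 FPKM (0.25 ± 0.15, limma adjusted p = 0.413). The difference between lists was not tested.

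Markers of other cells moved with genotype in the same libraries. The T cell genes Cd3e, Cd3d and Cd4 were at 281 to 408 FPKM in all 4 libraries. The groups overlapped for Cd3e and Cd3d, and Cd4 was higher in both Apoe-/- libraries (log2 difference 0.15 ± 0.08 SE, limma adjusted p = 0.351). The fourth tested T cell marker, the costimulatory receptor Cd28, was lower in both Apoe-/- libraries, at 133, 169, 83.8 and 114 FPKM (-0.61 ± 0.19, limma adjusted p = 0.165). The 5 Tfh markers went both ways, and 0 passed. Cxcr5 (0.33 ± 0.10) and Bcl6 (0.23 ± 0.09) were higher in both Apoe-/- libraries and Pdcd1 (-0.50 ± 0.10, limma adjusted p = 0.0887) lower in both, while the groups overlapped for Icos (0.04) and Il21 (0.01). Of 7 B cell markers all were lower in both Apoe-/- libraries, with a median of -0.75. By limma 3 of them fell, among them Cd22 and Fcer2a (adjusted p = 0.0349 and 0.0148). The summed level of the B cell markers was 305, 297, 189 and 178 FPKM.

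Of 7 neutrophil markers 4 were tested, and S100a8, S100a9, Retnlg and Csf3r rose by limma (adjusted p = 0.00832, 0.0142, 0.0142 and 0.0432). The neutrophil sum was 8.85, 6.91, 49.4 and 65.9 FPKM, with the granule genes Camp, Ngp and Mpo at 0 or at most 0.0452 FPKM. Dendritic cell markers (4 tested, median 0.75) summed to 7.49, 7.17, 15.9 and 17.1 FPKM, and Itgax rose (limma adjusted p = 0.0198). CD8 T and NK cell markers (5 tested, median 0.54, 0 called) summed to 13.3, 15.9, 21.9 and 26.0 FPKM. Macrophage and monocyte markers (6 tested, median 0.24) summed to 69.9, 70.7, 88.9 and 97.8 FPKM. Of these 6, 5 were positive and 1 negative. Groups were apart for 3 in the higher and 1 in the lower direction, beside 27.5% and 22.9% of all tested genes. Only Vsig4 was called, as higher (limma adjusted p = 0.0434), and its values were low, at 0.148, 0, 2.25 and 4.72 FPKM.

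Of 4 tested plasma cell markers Igj rose (limma adjusted p = 0.0247) while Xbp1 had the lowest difference, -0.48. Plasma cell markers summed to 88.1, 96.3, 88.8 and 85.9 FPKM. Erythroid markers were uneven within the Apoe-/- group, with sums of 14.8, 12.4, 29.4 and 3.25 FPKM, and 0 of 2 tested passed. The part of any of these cells in the differences of the ribosomal protein genes was not tested.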

How the data were processed

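The authors deposited 1 table with FPKM per gene symbol for 4 libraries. Per the submitters' processing notes, the build was mm10 and the tools were Cuffdiff 2.2.0, TopHat2 2.0.13 and CASAVA 1.8.2, without order or settings; the gene annotation is not given in the sources used here. Depth is therefore unknown, and no count model was used. The rows of Bcl6 and Cxcr5 (2 rows) held a space for a tab and were split on white space. Libraries were grouped by genotype from their labels.

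Values were analysed as log2(FPKM + 1), a scale that understates the change of low genes, for the 11187 genes whose mean FPKM reached 1, with limma 3.58.1 in R 4.3.3 (lmFit, eBayes with a mean-variance trend, no covariate, two-sided), adjustment by Benjamini-Hochberg over these genes and a threshold of 0.05. The fit was tested on simulated data, with changes larger than those of the members and noise independent between libraries. That test does not cover differences as small as the members'. Lists are described by counts and medians, with no test over a list. The members and all lists were chosen with earlier results of these data known.

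Members named are those past the threshold, the 8 highest and 8 lowest differences, the 6 highest and 6 lowest levels, the neighbours of the limit of 1 FPKM, paralog pairs, the stalk with Rps6, and those on chromosome 7 within 10 Mb of Apoe; of each list, the called genes and both extremes. Other genes named were chosen after their values were seen, and a few genes within these rules and lists are counted but not reported by name. Positions and start sequences are RefSeq's for GRCm38.p6. Transcript length, GC content and shared stretches of 50 bases come from GENCODE M21 transcripts.

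Low FPKM values, compared between libraries for steps that single fragments leave, shared 1 ratio in 19.0% and 18.8% of genes for libraries of equal replicate number, and in 4.64% to 6.44% for the other 4 pairs. Whole reads were not recovered. Differences within a number are therefore given beside some pooled ones. Alternatives changed the pseudocount, the filter, the mean-variance trend, the scaling and the block, or left out a library.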

Additional observations from a re-analysis of the deposited data

How the results depend on the processing

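Of the 13 alternatives, 9 kept all libraries. The members' median log2 difference of 0.21 stayed between 0.17 and 0.23 and was positive under all of them. In an alternative chosen after the data were seen, it was 0.233 without the 49 members that share over 50% of their stretches. It was 0.166 with libraries rescaled to one FPKM total, where the median of all tested genes was -0.0432; the small subunit's was 0.162 there. The ratio of median FPKM, large over small, was 0.802 over members with a mean FPKM of 5 or more. With 1 library left out and its partner assumed to vary like the other group, 0 members were called higher, and 0 to 1 lower (Rps27 without WT replicate 2); over all genes, 54 to 317 were called higher and 61 to 301 lower. With no filter on low values 35 genes were called higher and 41 lower, and with a mean FPKM of 5 or more 51 were called higher. The share of total FPKM differed by 2.10 to 3.0 percentage points with 1 library left out.

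The labels give no meaning to equal replicate numbers, so the number was not a block in the fit; across genes, the deviations of equal-numbered libraries, from 2 pairs, had a Pearson correlation of 0.214 and a Spearman correlation of 0.667. With the number as a replicate block 1908 genes were called higher and 1776 lower, among them 69 members higher and 1, Rps27l, lower. No pairing is thereby shown.

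Signs turned for a few named members with differences near 0 or uneven libraries. Rpl10 was at -0.011 with libraries rescaled to one FPKM total, and Rps2 at 0.0068 when centred on the median. With 1 library left out, values ran from -0.0077 to 0.082 for Rpl10, from -0.28 to 0.145 for Rpl22l1, from -0.447 to 0.101 for Rpl26, from -0.20 to 0.435 for Rpl30, from -0.104 to 0.0972 for Rps2, from -1.12 to 0.752 for Rps27 and from -0.0127 to 0.230 for Rps4l. The call of Rps27 without WT replicate 2 had a limma adjusted p of 0.0440. The cause was not tested beyond the removal of a library. Of 401 values of named members under alternatives, 367 kept their direction and side of the threshold. At an unknown depth, differences of the members under 500 FPKM are least certain.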

Other observations

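Some rows of ribosomal protein pseudogenes that are not members were low, whereas Rpl34-ps1, given above, was abundant. Not all such rows were surveyed. Rpl31-ps12 was at 1.46, 1.35, 4.35 and 3.53 FPKM and was called higher in Apoe-/- libraries (log2 difference 1.03 ± 0.14 SE, limma adjusted p = 0.0426), beside Rpl31 at 760, 825, 916 and 996 FPKM (0.27 ± 0.09). The stretches of Rpl31-ps12 were shared to 69.3% with other genes. How much of its value comes from them is unknown, since the assignment of shared fragments is not given. Rps15a-ps4 was at 6.61, 7.10, 9.82 and 7.77 FPKM, Rps15a-ps6 at 5.88, 6.42, 4.95 and 6.77 FPKM, and Rps19-ps3 at 2.69, 3.93, 3.47 and 3.44 FPKM, with limma adjusted p from 0.307 to 0.869. Rps15a itself was at 198, 218, 217 and 252 FPKM, far below most members of the small subunit.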
